A study of Mus musculus with 74 samples.

Results

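The EMT factors and cadherins described here are 10 genes chosen by name: the transcription factors Snai1, Snai2, Zeb1, Zeb2, Twist1 and Twist2, the cadherins Cdh1 and Cdh2, the intermediate filament gene Vim and the epithelial adhesion gene Epcam. Of these 10 genes, 8 had a mean in both tissues in all 5 tables that hold group means, out of 12317 gene symbols shared by those tables. Twist1 had both means in 2 tables and Twist2 in 1.

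Bulk RNA-seq was performed on primary mammary tumors (PT) and lung metastases (Lung met) of the same animals, 74 samples in all. The oncogenic driver cohort was on the FVB background and comprised MMTV-Her2, C3Tag and MMTV-Myc mice. The PyMT-F1 cohort came from MMTV-PyMT males on FVB crossed to BALB, SEAGN or AKR females. Each tissue of each model had 6 samples, except C3Tag with 7. All animals were transgene-positive F1 females of unstated age, and no group was free of tumor. The MMTV promoter drives Her2, Myc and PyMT in mammary epithelium, whereas the C3(1) promoter drives the SV40 large T antigen in C3Tag. In the driver models, tumors were resected in animals with a single lesion. The animals were then kept for 60 days more, or until a humane endpoint neared if that came first. PyMT animals were followed to a humane endpoint. PT tissue pooled all tumors of an animal, and whole metastases were extracted with whatever lung tissue they held. The levels in the files are group means, with none for a single sample, so the spread between animals and the depth behind a mean are unknown. The table deposited under AKR names no strain in its columns and is called AKR-named. Its gene identifiers differ from those of the BALB and SEAGN tables, and which cross it holds could not be checked. The Myc table listed 9 of the 10 genes, all but Twist2, without a level in either tissue, and no Myc value is given.

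Epithelial-mesenchymal transition (EMT) is a program in which epithelial cells loosen their junctions and take on a migratory, mesenchymal shape. The Snail, Zeb and Twist factors bind E-box elements and repress epithelial genes, E-cadherin (Cdh1) above all, while N-cadherin (Cdh2) and vimentin (Vim) mark the mesenchymal state. In the mammary gland Cdh1 and Epcam are made by the epithelium. Fibroblasts, endothelium and leukocytes make Vim, Zeb1 and Zeb2, and therefore bulk values of these genes mix tumor and stroma. In such samples fewer cells of a type and less RNA per cell cannot be told apart.

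The E-box bound by the Snail and Zeb factors reads CAGGTG, or CACCTG on the other strand. It was sought on both strands from 250 bases before to 50 bases after each RefSeq start site on GRCm38.p6. A window was held for 6 of the 10 genes, and Snai2, Zeb1, Cdh1 and Cdh2 had none. Snai1 and Epcam held the motif, as did 20.2% of 32851 windows of the same length. The windows of 30 bases below, written 5′ to 3′ on the plus strand with the motif in capitals, are shown since they are the matches to these factors' element among the genes. They lie in Snai1 at chr2:167538057-167538086, 126 bases before the start, and in Epcam at chr17:87635780-87635809 and chr17:87635948-87635977, 187 and 19 bases before it. A match is a description of the letters only.
Snai1: gcagcccaggcgCACCTGctccggtctcag
Epcam, distal: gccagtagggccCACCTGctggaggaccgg
Epcam, proximal: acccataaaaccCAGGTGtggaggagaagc

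No gene of the group changed past the threshold across the 5 tables. Levels below are the authors' means of normalized counts, and each difference is the log2 of the Lung met mean over the PT mean after adding 1 to both. limma tested whether the mean of a gene's 5 differences, 1 per table, differed from 0, so the error is the spread between models. It treats the tables as independent, as does the sign-flip test below. The PyMT-F1 tables share a driver and the FVB father, and the paper describes BALB and SEAGN as closely related. Intervals may therefore be too narrow and p-values too small. Of 8 genes tested, 0 had a Benjamini-Hochberg adjusted p under 0.05, against 1.78% of 12280 genes (185 with the higher mean in Lung met and 34 with the lower). Without adjustment, 2 of the 8 had a limma p under 0.05, Snai1 and Zeb2, as did 2057 genes in all (16.8%). The median difference was 0.31 over the 8 genes and 0.02 over all genes tested.

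Snai1, which encodes the zinc-finger repressor Snail, had a higher mean in Lung met in every table. It averaged 43.8 in PT and 65.6 in Lung met of Her2, and 249.6 and 504 in C3Tag. In the PyMT-F1 tables it averaged 59.3 and 105 in BALB, 64.8 and 65.7 in SEAGN, and 109.7 and 161.6 in AKR-named. The differences were thus 0.57, 1.01, 0.81, 0.02 and 0.55, with SEAGN close to no difference. The limma mean was 0.59 (SE 0.15), a 1.51-fold difference with a 95% interval of 1.18 to 1.93, and an adjusted p of 0.119. A two-sided exact sign-flip test over the 5 tables gave p = 0.0625, the smallest 5 tables allow. In all, 11.6% of the 12280 genes were higher in all 5 tables.

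Snai2 encodes Slug, the related repressor that is also active in basal mammary cells. It averaged 34.5 in PT and 29.9 in Lung met of Her2, and 51.5 and 65.0 in C3Tag. It averaged 49.2 and 73.5 in BALB, 37.3 and 89.6 in SEAGN, and 107 and 91.3 in AKR-named. Its order over tables was unlike that of Snai1: SEAGN, where Snai1 differed least, had the largest Snai2 difference, 1.24, and the lowest values were −0.20 in Her2 and −0.23 in AKR-named. The limma mean was 0.34 (SE 0.23) with an adjusted p of 0.4996. Exonic lengths here and below came from GENCODE on GRCm38, which may differ from the annotation used for counting. Small gaps in level between genes are therefore uncertain. Per exonic kb, the log2 level of Snai1 over Snai2 was above 0 in PT in all 5 tables, from 0.35 in AKR-named to 2.59 in C3Tag. In Lung met it was above 0 in 4 tables and −0.13 in SEAGN.

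Zeb1 and Zeb2 encode zinc-finger homeobox repressors that also act in leukocytes and endothelium. Zeb1 averaged 259 in PT and 270.3 in Lung met of Her2, 451 and 920.3 in C3Tag, 112 and 83.6 in BALB, 112 and 102 in SEAGN, and 151 and 274 in AKR-named. Its differences lay from −0.42 in BALB to 1.03 in C3Tag and 0.85 in AKR-named, with 3 tables above 0 and 2 below. Zeb2 averaged 575 and 610.2 in Her2, 1520.4 and 2684 in C3Tag, 374 and 403 in BALB, 486 and 531 in SEAGN, and 277 and 556 in AKR-named. It was higher in Lung met in all 5 tables, but by 0.09 to 0.13 in Her2, BALB and SEAGN against 0.82 in C3Tag and 1.01 in AKR-named. limma gave 0.28 (SE 0.23) for Zeb1 and 0.43 (SE 0.16) for Zeb2, with adjusted p of 0.581 and 0.248. The exact two-sided sign-flip p of Zeb2 was 0.0625, again the smallest possible.

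Twist1 and Twist2 encode basic helix-loop-helix factors best known from mesoderm and mesenchyme. Twist1 averaged 437 in PT and 393 in Lung met of C3Tag, and 30.3 and 30.1 in AKR-named. Its differences were −0.15 and −0.01, so both means of each table lay close together. Twist2 averaged 44.9 and 75.5 in C3Tag, a difference of 0.74. No other mean of either gene was analysed here, and neither gene was tested.

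The mean level of E-cadherin in Lung met was close to that in PT in each of the 5 tables. Cdh1 averaged 8130.0 in PT and 8543 in Lung met of Her2, 12386 and 13347 in C3Tag, 4829.7 and 4779 in BALB, 4324 and 4180.3 in SEAGN, and 13643 and 11954 in AKR-named. The differences ran from −0.19 in AKR-named to 0.11 in C3Tag. The limma mean was −0.02 (SE 0.07) with an adjusted p of 0.931, and the 95% interval ran from 0.885-fold to 1.11-fold. The SD of the Cdh1 difference over tables was 0.12, and 17.3% of genes tested had a smaller one.

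Cdh2, the cadherin of mesenchymal and neural cells, took opposite directions in different models. It averaged 67.1 in PT and 57.6 in Lung met of Her2, 662 and 1037 in C3Tag, 45.8 and 23.3 in BALB, 61.5 and 25.6 in SEAGN, and 88.8 and 202 in AKR-named. Lung met was lower in BALB and SEAGN by −0.95 and −1.23 and higher in C3Tag and AKR-named by 0.65 and 1.18. limma gave −0.11 (SE 0.36) with an adjusted p of 0.902, and the sign of the mean turned to 0.09 without the BALB table and 0.17 without the SEAGN table. The SD over tables was 1.03, larger than that of 98.0% of genes tested, whose median SD was 0.21. That ranking took no account of level, and Cdh2 was low outside C3Tag. The share of genes with a lower PT mean was 26.3% in Her2, 28.8% in AKR-named, 31.5% in BALB and 37.0% in SEAGN, against 62.1% in C3Tag. Per exonic kb, Cdh2 lay below Cdh1 in both tissues of every table, by a log2 level of −5.05 in PT of C3Tag at the nearest and −8.50 in Lung met of BALB at the farthest.

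Vim encodes vimentin, the intermediate filament of mesenchymal cells and leukocytes. It averaged 7654 in PT and 4682 in Lung met of Her2, 5359 and 14538 in C3Tag, 1110.0 and 1153 in BALB, 1344 and 1071 in SEAGN, and 3966 and 12032 in AKR-named. The means thus differed by −0.71 in Her2, by 1.44 in C3Tag and by 1.60 in AKR-named, with BALB at 0.06 and SEAGN at −0.33. The limma mean was 0.41 (SE 0.36) with an adjusted p of 0.609. Its SD over tables, 1.05, was larger than that of 98.2% of genes. Set against Cdh1 per exonic kb, the log2 level of Vim was −1.26 in PT of C3Tag and 0.07 in Lung met. The same values were −1.83 and −0.04 in AKR-named, −0.14 and −0.92 in Her2, −2.17 and −2.10 in BALB, and −1.74 and −2.02 in SEAGN. Vim therefore stood within 0.14 of Cdh1 in the Lung met of C3Tag and AKR-named and in PT of Her2, and below it in the other groups.

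Epcam encodes an adhesion molecule of carcinoma and other epithelial cells. It averaged 49467 in PT and 46274 in Lung met of Her2, 20928 and 13066 in C3Tag, 4059 and 4115 in BALB, 4155 and 4000.1 in SEAGN, and 22226 and 22942 in AKR-named. The difference was −0.68 in C3Tag and between −0.10 and 0.05 in the other 4 tables. limma gave −0.15 (SE 0.12) with an adjusted p of 0.567. Per exonic kb Epcam was the highest of the tested genes in both tissues of every table.

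**Figure D1:**
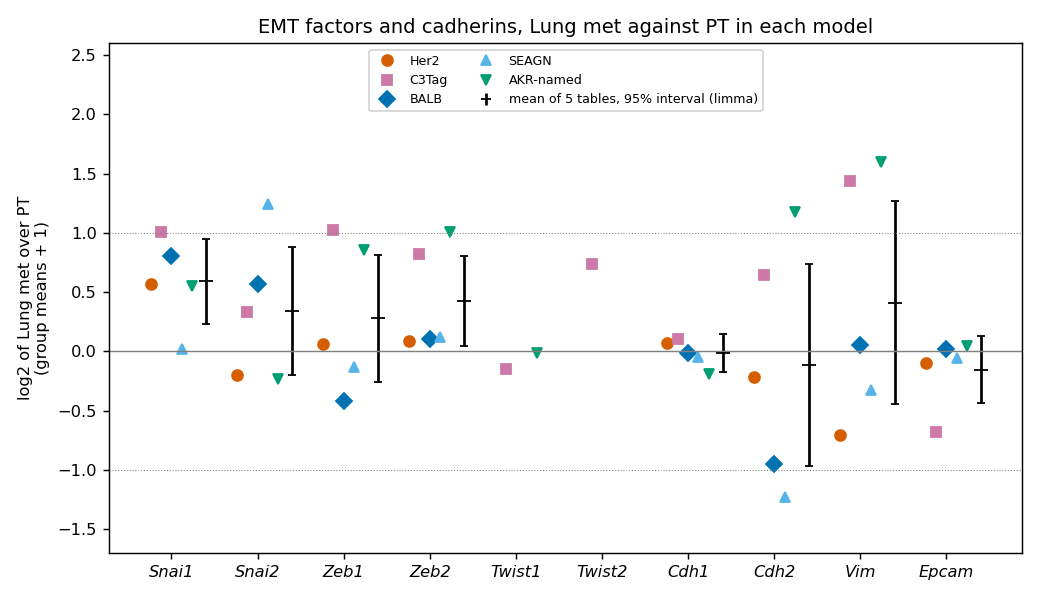
The y axis gives the log2 of the Lung met mean over the PT mean, each after adding 1, for the 10 genes on the x axis, with 1 symbol per table and dotted lines at 2-fold. Black bars give the limma mean of 5 tables with its 95% interval for the 8 genes tested: Cdh1 sits within 0.19 of 0 in every table, whereas Vim runs from −0.71 to 1.60.

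**Figure D2:**
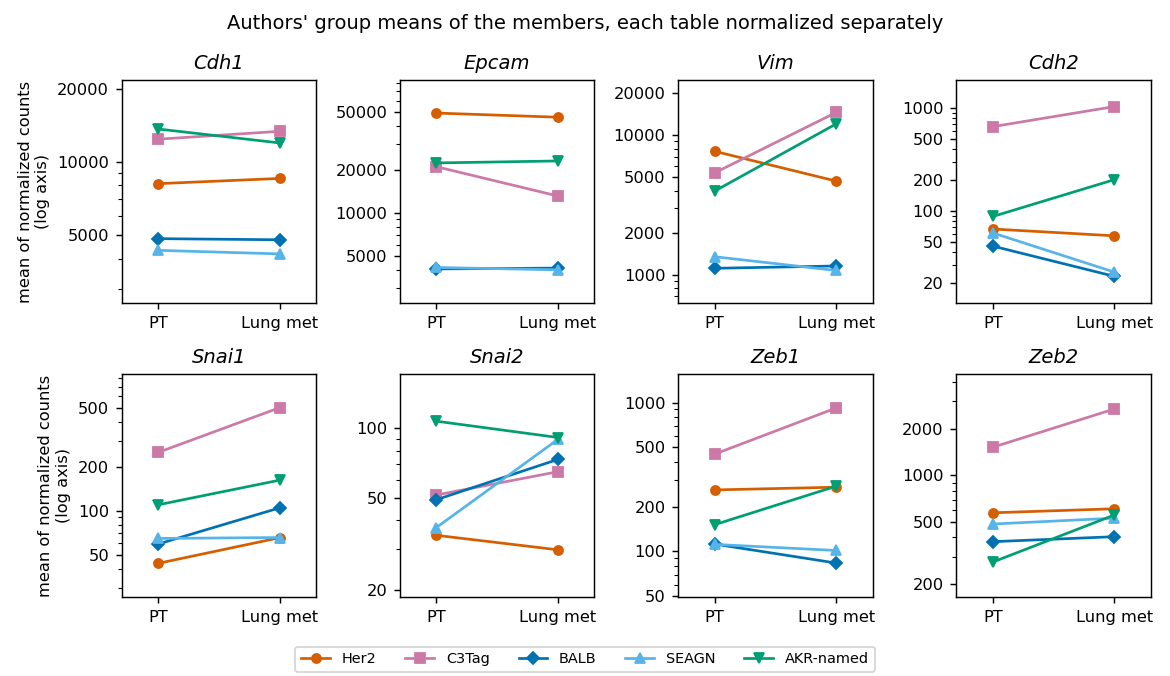
Each panel gives the authors' mean of normalized counts of 1 gene on a log axis, in PT and Lung met, with lines joining both tissues of a table. The lines of Cdh1 are nearly flat, those of Vim climb by more than 2-fold in C3Tag and AKR-named, and Cdh2 slopes down in BALB and SEAGN; heights are not comparable between tables, which were normalized separately.

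Within single tables no test was possible, so the genes were counted against a 2-fold difference in either direction. In Her2, 0 of 8 genes with both means passed 2-fold, against 3.57% of all genes in that table. In C3Tag 3 of 10 passed (Snai1, Zeb1 and Vim, all higher in Lung met), against 8.74%. In BALB the count was 0 of 8, against 4.08%, and in SEAGN 2 of 8 (Snai2 higher, Cdh2 lower), against 5.4%. In AKR-named 3 of 9 passed (Zeb2, Cdh2 and Vim, all higher), against 8.56%. Zeb1, Zeb2, Cdh2 and Vim were thus each higher by at least 0.65 in both C3Tag and AKR-named, and each was at most 0.13 in the other 3 tables. The median difference over the genes present was 0.69 in C3Tag and 0.55 in AKR-named, and −0.02, 0.04 and −0.05 in Her2, BALB and SEAGN. The median over all genes of each table lay between −0.00124 and 0.0291.

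The driver tables, Her2 and C3Tag, were compared with the 3 PyMT-F1 tables by a second limma term. The authors' analysis tool also differed between the cohorts, so cohort and tool cannot be told apart. The difference was past the threshold for 0 of the 8 genes and for 0.0% of 12280 genes. At an unadjusted p under 0.05 limma gave 0 of the 8 and 635 of all genes (5.17%). Epcam came nearest, with a mean difference of −0.39 in the driver tables and 0.00 in the PyMT-F1 tables, a gap of −0.39 (SE 0.21, adjusted p = 0.887). Vim, which split within both cohorts, had a gap of −0.08 with a 95% interval of −2.05 to 1.89, too wide to show a difference between cohorts at 5 tables.

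Markers of other cell types also differed between the tissues. All 9 endothelial markers (Pecam1, Kdr, Vwf and others) were higher in Lung met in Her2, C3Tag and AKR-named, and 8 of 9 in BALB and SEAGN. Their median difference was 1.42 in C3Tag and 1.87 in AKR-named and 0.56 to 0.76 in the other 3 tables. Vim, Zeb1, Zeb2 and Cdh2 were likewise highest in Lung met relative to PT in C3Tag and AKR-named. This order was not particular to endothelium. The macrophage and leukocyte, fibroblast and lung epithelial medians were also highest in C3Tag and AKR-named. Some margins were small, as for fibroblast markers at −1.38 in AKR-named and −1.48 in Her2. The summed level of the 9 markers was 2580 in PT and 7765 in Lung met of C3Tag, 2623 and 9663 in AKR-named, 3514 and 6036 in Her2, 821 and 1255 in BALB, and 898 and 1467 in SEAGN. Of 9 macrophage and leukocyte markers, 5 to 8 had both means, and their median difference ran from 0.09 in BALB to 0.96 in AKR-named. Their summed level was 10923 and 38963 in C3Tag, 15864 and 56202 in AKR-named, 14766 and 22638 in Her2, 1598 and 4043 in BALB, and 2006 and 7222 in SEAGN. Lyz2 made up 75.7% to 90.1% of the sum in Lung met. Without it the sums were 5367 and 7953 in C3Tag, 3566 and 5544 in AKR-named, 5007 and 5496 in Her2, 899 and 969 in BALB, and 983 and 1579 in SEAGN. The median without Lyz2 ran from 0.00 in BALB to 0.75 in AKR-named, and Csf1r lay between −0.40 in Her2 and 0.26 in C3Tag. Marco, which marks alveolar macrophages, was among the markers not analysed here. The part of these cells in the differences of Vim, Zeb1, Zeb2, Cdh2 and Snai1 was not tested.

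Fibroblast markers went the other way. Of 10, 6 to 9 were lower in Lung met in each table, with medians of −1.48 in Her2, −0.34 in C3Tag, −1.75 in BALB, −2.36 in SEAGN and −1.38 in AKR-named. Their summed level was 37843 in PT and 34552 in Lung met of C3Tag, 26107 and 10697 in AKR-named, 22002 and 9936 in Her2, 12032 and 3898 in BALB, and 16868 and 3441 in SEAGN. Of the 10, limma called 6 over the 5 tables, with 9 at an unadjusted p under 0.05, against 1.78% and 16.8% of all genes. Lum, Thy1, Fap, Serpinf1 and Col1a1 fell, and Pdgfra rose by 0.65 (limma SE 0.09, adjusted p = 0.0215). Thy1 passed whichever table was left out, Fap failed without SEAGN (adjusted p = 0.0530), and the other 4 failed in 3 to 5 of the 5 fits that left out a table. Cdh2 was lowest in SEAGN and BALB, where the fibroblast markers were lowest too, and their part in that was not tested. Lung epithelial markers, 7 or 8 of 12 with both means, had medians of 3.29 to 5.36, the highest of the marker lists in every table. Their summed level was 449 to 2991 over the PT groups and 3942 to 37941 over the Lung met groups, and Sftpc, Sftpb, Sftpa1 and Scgb1a1 were not analysed here. Lung epithelium also makes Cdh1 and Epcam. Cdh1 was near flat in every table and Epcam in all but C3Tag (−0.68), and the part of lung epithelium in these levels was not tested. Smooth muscle and pericyte markers, 5 to 8 of 8 with both means, had medians of −0.31 to 0.45. There limma called 0 of the 5 tested, with 2 at an unadjusted p under 0.05, against 1.78% and 16.8% of all genes. Myoepithelial markers, 3 to 5 of 5 with both means, had medians of 1.08 in Her2, −1.09 in C3Tag, 0.82 in BALB, 0.80 in SEAGN and −0.35 in AKR-named. Snai2, which basal cells make, was higher in Lung met in BALB, SEAGN and C3Tag and lower in Her2 and AKR-named. The part of these cells was not tested. Skeletal muscle markers, 1 to 4 of 5, had medians of −4.62 to −3.09 in Her2, C3Tag, BALB and SEAGN and 0.77 in AKR-named. Neural and Schwann markers, 3 to 5 of 5, had medians of −0.41 to 0.05. Among these, S100b was −1.95 in SEAGN, −1.02 in Her2, −0.62 in BALB, −0.05 in C3Tag and 0.31 in AKR-named, and its part in the Cdh2 values was not tested. T and B cell markers, 2 to 4 of 7, had medians of −0.31 to 0.83, and at most 1 of 5 adipocyte markers had both means. Luminal mammary markers had medians of 0.21 to 0.40, and both tissues held Krt8 and Krt18.

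**Figure D3:**
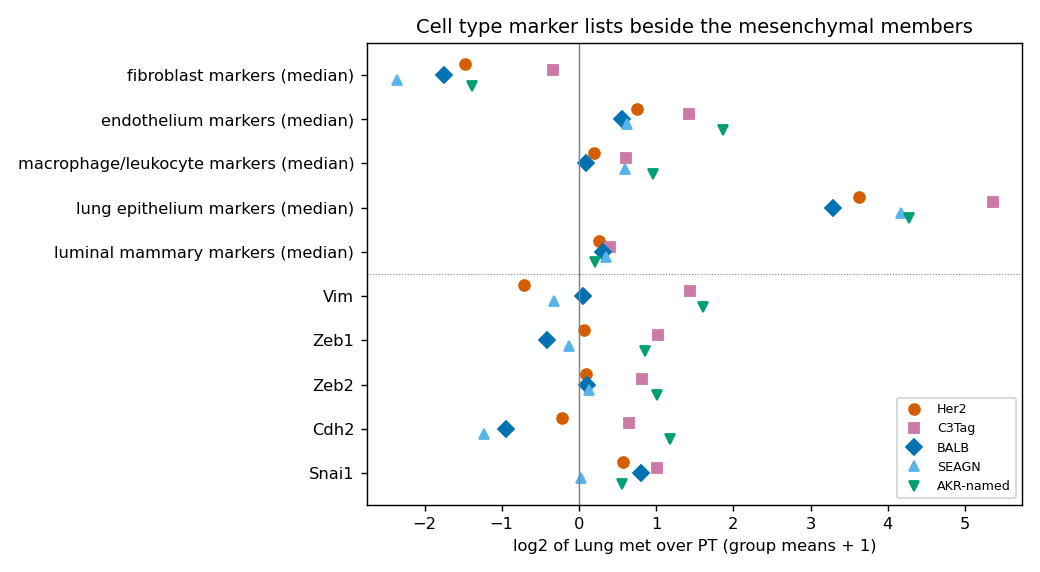
The x axis gives the log2 of Lung met over PT; rows above the dotted line are medians of cell type marker lists and rows below it single genes, with 1 symbol per table. C3Tag and AKR-named lie farthest right for Vim, Zeb1, Zeb2 and Cdh2 and for the endothelial markers, where they reach 1.42 and 1.87. They also lie farthest right for the fibroblast, macrophage/leukocyte and lung epithelium medians.

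Other genes of the EMT program were taken from 6 wider lists. Of 9 other EMT transcription factors 5 were tested, and Foxc1, a forkhead factor of mesenchyme, fell by 0.45 on the log2 scale (SE 0.08, adjusted p = 0.0440). It was lower in all 5 tables, but passed in only 1 of the 5 fits that left out a table, the one without C3Tag. Its adjusted p was 0.0719 to 0.139 in the fits without Her2, BALB, SEAGN or AKR-named, and the other 4 of the list did not pass. Of the 5, limma called 1, with 2 at an unadjusted p under 0.05, against 1.78% and 16.8% of all genes. Of 13 keepers of the epithelial state, such as the Grhl, Ovol and Esrp genes, 10 were tested and limma called 0, with 3 at an unadjusted p under 0.05, against 1.78% and 16.8% of all genes. Elf3 was nearest, at 0.34 (SE 0.09, adjusted p = 0.130), ahead of Klf5 at 0.26 (SE 0.09, adjusted p = 0.223). The list's median over the 10 was 0.02, as it was over all genes. By table, 11 to 13 of the 13 had both means. Their median was −0.02 in Her2, −0.21 in C3Tag, 0.24 in BALB, 0.05 in SEAGN and −0.43 in AKR-named.

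Of 21 junction genes 19 were tested, and only the desmosomal cadherin Dsc2 passed, falling in all 5 tables by 0.36 on the log2 scale on average (SE 0.06, adjusted p = 0.0418). It failed whichever table was left out, with adjusted p of 0.0831 to 0.139. Of the 19, limma called 1, with 4 at an unadjusted p under 0.05, against 1.78% and 16.8% of all genes. The list's median over the 19 was 0.05. By table, over the genes with both means, it was −0.08 in Her2, −0.05 in C3Tag, 0.21 in BALB, 0.07 in SEAGN and 0.01 in AKR-named. Of 12 catenins and cadherin partners 8 were tested and limma called 0, with 3 at an unadjusted p under 0.05, again beside 1.78% and 16.8% of all genes. Their estimates ran from −0.34 for Ctnnal1 to 0.45 for Ctnnd2. Vcl, which links cadherin and integrin contacts to actin, was nearest at 0.34 (SE 0.07, adjusted p = 0.0718), followed by Nectin1 at 0.25 (SE 0.08, adjusted p = 0.193).

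Of 20 other classical and type II cadherins 5 were tested, and Cdh5 passed. Of the 5, limma called 1, with 4 at an unadjusted p under 0.05, against 1.78% and 16.8% of all genes. Cdh5 encodes VE-cadherin, the cadherin of endothelium, and rose 2.04-fold (log2 1.03, SE 0.18, adjusted p = 0.0423). It passed without Her2 and failed without C3Tag, BALB, SEAGN or AKR-named (adjusted p 0.0866 to 0.1199). It differed most in C3Tag, 1.45, and AKR-named, 1.64, and by 0.46 to 0.84 in the other 3 tables, beside the endothelial markers described above. All 19 mesenchymal effectors were tested, and fibronectin (Fn1), an extracellular matrix protein, rose 2.03-fold (log2 1.02, SE 0.16, adjusted p = 0.0325). It passed without SEAGN and failed without Her2, C3Tag, BALB or AKR-named (adjusted p 0.0743 to 0.106). Fn1 averaged 4038 in PT and 8168 in Lung met of Her2, 50248 and 113230 in C3Tag, 2638 and 5225 in BALB, 4454 and 5732 in SEAGN, and 4052 and 12093 in AKR-named. The other 18 did not pass, and their estimates ran from −1.41 for Mmp2 to 1.13 for S100a4. Of the 19, limma called 1, with 7 at an unadjusted p under 0.05, beside the same 1.78% and 16.8% of all genes. The median of the 19 was 0.15. By table it was 0.08 in Her2, 0.35 in C3Tag, −0.03 in BALB, 0.04 in SEAGN and 0.32 in AKR-named.

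**Figure D4:**
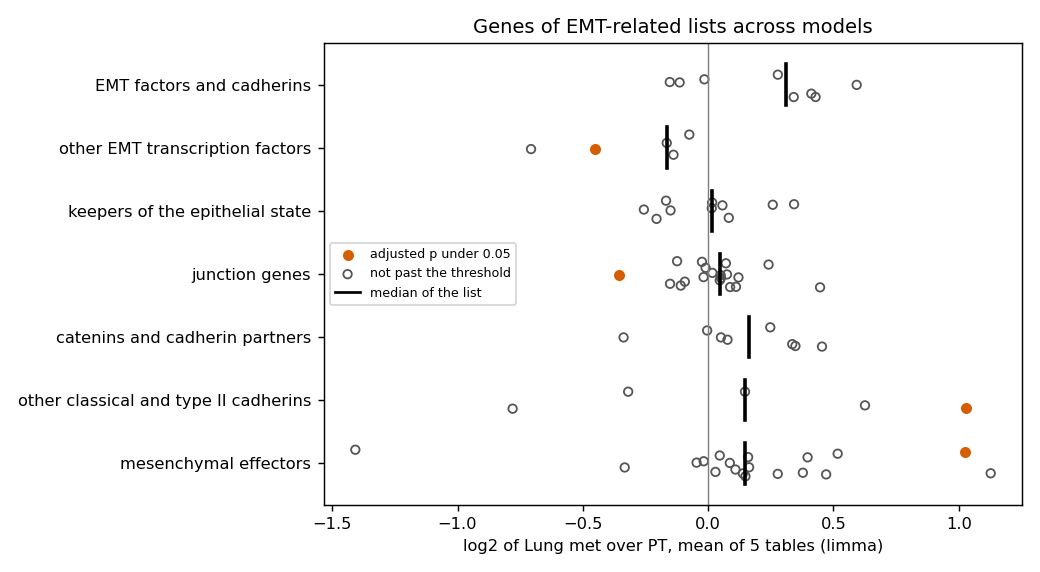
The x axis gives the limma mean of the log2 of Lung met over PT over 5 tables for the tested genes of each list (rows), with filled points for an adjusted p under 0.05 and a black line at each list's median. Filled points are Foxc1, Dsc2, Cdh5 and Fn1, and none of the 8 tested genes of the top row is filled.

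The genes whose levels ran most alike with Vim over the 10 group means were Ptp4a3 (Pearson r 0.986), Tmem88 (0.986) and Ccl2 (0.984), among 12280 genes on the log2 scale. The genes most like Cdh1 were Srpk1 (0.996), Prr14 (0.995) and Ssbp3 (0.994). The points of these correlations share a table's scale and gene annotation. BALB and SEAGN had lower values of Vim and Cdh1 than the other 3 tables, but also lower sums over all genes. In PT those sums were 7.44e+06 in BALB and 6.83e+06 in SEAGN, against 2.86e+07 to 4.09e+07 in the other 3. Levels are thus not comparable between tables, and likeness of genes and the scale of tables cannot be told apart in these r values.

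Gene positions and exonic lengths follow GENCODE on GRCm38, which is not the build named for the files. Snai1 spans chromosome 2 from 167538195 to 167542814 on the plus strand, and Snai2 chromosome 16 from 14705852 to 14709385. Cdh1 spans chromosome 8 from 106603351 to 106670246, Vim chromosome 2 from 13573927 to 13582826 and Epcam chromosome 17 from 87635979 to 87651129. Zeb2 spans chromosome 2 from 44983632 to 45117395 on the minus strand and overlaps 5 annotated genes, among them the antisense gene Zeb2os, and Zeb1 overlaps 3 and Cdh2 1. Whether the authors counted by strand is not given in the sources used here, so reads of these overlapping genes may be mixed in Zeb1, Zeb2 and Cdh2.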

How the data were processed

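RNA from 74 PT and Lung met samples was sequenced. Per the paper's methods, the authors used Partek Flow for alignment, gene counting and normalization (method not given). Tissues were then compared by the authors with Gene Specific Analysis for driver models and with DESeq2 in the PyMT-F1 cohort. The submitters' processing notes name STAR 2.7.8a and mm39, whereas the methods name mm9. The deposited signal values used here are the authors' least-squares means per tissue, without SD, n or depth. The deposited columns of p-values, FDR, ratios and fold changes hold the authors' own comparisons and were not used, so the Myc table gave no value. PyMT-F1 samples were grouped by title, as titles and genotype fields disagreed.

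Log2 differences (pseudocount 1) were tested in limma 3.58.1 (R 4.3.3, trend, Benjamini-Hochberg) over genes averaging at least 10, with 1 value per table. The limma step was tested on simulated data. Exact sign-flip tests were two-sided. Named genes were the 10 members and, per wider list, the called genes (at most 4) or else the 2 with the smallest p. The 10 genes and the lists were chosen with earlier results of these data known. Alternatives changed the pseudocount, filter, centring, limma prior, fold limit and tables included. Sequences are RefSeq's.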

Additional observations from a re-analysis of the deposited data

Results flagged for a closer look

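The Epcam difference in C3Tag, −0.68 on the log2 scale, stood apart from the other 4 tables, which lay between −0.10 and 0.05. Its gap to the nearest table was 0.804 of the whole range, above the critical value of 0.71 for 5 values. Dixon's criterion flags about 1 in 20 groups by chance when values are independent and normal, which was not checked for these tables. Of the 8 tested genes 1 was flagged. The share of all genes that would be flagged was not computed, so the flag cannot be weighed against it.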

How the results depend on the processing

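No gene among the 8 tested members passed the limma threshold under any alternative setting of that test. Over 7 planned settings of pseudocount, filter, centring and prior, Snai1 stayed between 0.55 and 0.60 with adjusted p of 0.117 to 0.145, and leaving out each table gave 0.49 to 0.74 with adjusted p of 0.0966 to 0.314. Leaving out each table gave −0.0458 to 0.0288 for Cdh1, with the sign turned without AKR-named, and −0.44 to 0.17 for Cdh2, with the sign turned without BALB (0.09) or SEAGN (0.17). The cause was not tested. Leaving out each table gave 60 to 165 called genes of all genes tested, fewer than 219, and 0 to 14 for the difference between cohorts. At 1.5-fold the share of genes passing was 8.52% in Her2, 19.0% in C3Tag, 11.7% in BALB, 14.2% in SEAGN and 19.1% in AKR-named. Beside the members past 2-fold, Vim then passed in Her2 (1.63-fold, lower), and Snai1 (1.75-fold, higher) and Cdh2 (1.93-fold, lower) in BALB. Zeb2 (1.77-fold), Twist2 (1.67-fold) and Cdh2 (1.57-fold), all higher, and Epcam (1.60-fold, lower) were added in C3Tag. Zeb1 (1.81-fold, higher) was added in AKR-named, and none in SEAGN. Foxc1 did not pass with a pseudocount of 10 (adjusted p = 0.0504), a mean of at least 100 (0.0507) or without the trend (0.0726), and neither did Dsc2 (0.0705) and Cdh5 (0.0605) without the trend. Leaving out each table gave adjusted p of 0.0482 to 0.139 for Foxc1, 0.0831 to 0.139 for Dsc2, 0.0465 to 0.1199 for Cdh5 and 0.0254 to 0.106 for Fn1. No paired analysis was possible because the tables hold group means, not single samples. The depth behind the means is unknown.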
